A study of Homo sapiens with 3 samples.

Results

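The let-7 family was among the miRNAs bound to Argonaute2 (Ago2) in Hep G2 cells, with hsa-let-7a and hsa-let-7f giving 64.7% to 66.5% of its signal on each of the 3 arrays compared here. The 9 members on the array were hsa-let-7a, hsa-let-7b, hsa-let-7c, hsa-let-7d, hsa-let-7e, hsa-let-7f, hsa-let-7g, hsa-let-7i and hsa-miR-98, taken by their exact names from the 939 miRNA names on the array, of which 851 were human. Hep G2 is an established human liver cancer line. Cells were either left without transfection (non-treated, with no control mimic) or transfected by a lipid reagent with a duplex RNA (5 nM) that mimics miR-195 or miR-497, and Ago2 was immunoprecipitated after 24 hours in the transfected groups, with the same time on the label of the non-treated cells. For each group 10 ng of the recovered RNA was labelled with the dye Cy3 and hybridised to 1 array. The transfected groups therefore differ from the non-treated group both in the mimic and in having been transfected, and these cannot be told apart. With 1 array per group, the differences below have no test. The SD beside a signal (spot SD) is the spread between repeated spots of the same array, without spots flagged as outliers. It is therefore narrower where spots were flagged, and says nothing of how cultures, immunoprecipitations or arrays differ.

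let-7 is a conserved miRNA family known for rising as cells differentiate and for holding down genes that drive growth, among them RAS genes and HMGA2. It is counted among the tumour suppressors in liver and other cancers, and the RNA-binding proteins LIN28A and LIN28B block its maturation. A mature let-7 strand acts once Ago2 holds it, where its seed (bases 2 to 8 from the 5′ end) pairs with target mRNAs. The arrays address how much of the miRNA in Ago2 belonged to this family and whether that changed when a mimic entered the cells.

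The mature sequences are shown because the members are nearly identical, and their likeness bears on every value read from the probes. They are RefSeq sequences of the GRCh38.p14 assembly, written 5′ to 3′ with the seed in capitals. All 9 names matched.

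hsa-let-7a: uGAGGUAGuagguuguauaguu
hsa-let-7b: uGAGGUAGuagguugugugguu
hsa-let-7c: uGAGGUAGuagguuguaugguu
hsa-let-7d: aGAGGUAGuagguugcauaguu
hsa-let-7e: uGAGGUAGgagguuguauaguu
hsa-let-7f: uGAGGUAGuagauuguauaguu
hsa-let-7g: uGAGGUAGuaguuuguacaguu
hsa-let-7i: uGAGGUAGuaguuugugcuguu
hsa-miR-98: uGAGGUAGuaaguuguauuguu

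All 9 shared 1 seed, GAGGUAG, and had 22 bases, of which 14 positions were the same in every member. Of the 36 pairs of members, 4 differed at a single base and 10 at 2 bases. Counted from 1 at the 5′ end and with hsa-let-7a first, the single differences were A19G in hsa-let-7c, U9G in hsa-let-7e and G12A in hsa-let-7f. The fourth such pair was hsa-let-7b and hsa-let-7c, with G17A. Against hsa-let-7a, hsa-let-7b carried A17G and A19G, hsa-let-7d carried U1A and U16C, hsa-let-7g carried G12U and U18C, and hsa-miR-98 carried G11A and A19U. hsa-let-7i was the farthest from hsa-let-7a, with 4 differences (G12U, A17G, U18C and A19U). Among 2370 human mature names in the RefSeq table, 11 had this seed, the other 2 being hsa-miR-4458 and hsa-miR-4500, which are not names of this array. The bases with G or C numbered from 7 in hsa-let-7f and hsa-miR-98 to 10 in hsa-let-7b.

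The members come from 12 loci in GRCh38.p14. The array files carry no coordinates and name the hg19 build in their header, so the positions here belong to the sequences and not to the measurement. hsa-let-7a has 3 identical copies, MIRLET7A1 at chr9:94175962-94175983 (+) in the lncRNA gene MIRLET7A1HG, MIRLET7A2 at chr11:122146568-122146589 (-) in MIR100HG, and MIRLET7A3 at chr22:46112752-46112773 (+) in MIRLET7BHG. hsa-let-7f has 2 copies, MIRLET7F1 at chr9:94176353-94176374 (+) beside MIRLET7A1 and MIRLET7F2 at chrX:53557246-53557267 (-) in HUWE1. MIRLET7D lies in the same chromosome 9 host gene at chr9:94178841-94178862 (+), MIRLET7B at chr22:46113691-46113712 (+) near MIRLET7A3, and MIR98 at chrX:53556299-53556320 (-) near MIRLET7F2. The other members have a locus each, MIRLET7C at chr21:16539838-16539859 (+) in MIR99AHG, MIRLET7E at chr19:51692793-51692814 (+) in SPACA6, MIRLET7G at chr3:52268336-52268357 (-) in WDR82 and MIRLET7I at chr12:62603691-62603712 (+) in MIRLET7IHG. An array probe reads the mature strand and cannot say from which copy it came.

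Each array had 15024 non-control spots, 144 of them for the family, from 18 probes with 8 spots each and 2 probes per member. Human miRNAs well above background numbered 168 in non-treated cells, 153 after miR-195 and 121 after miR-497. The last of these arrays was dimmer for most miRNAs but not for all (hsa-miR-923_v12.0 had 287 units in non-treated cells and 363 there). The 75th percentile of the 183 probes detected on all 3 arrays, used to scale the arrays, was 827, 778 and 263 intensity units in the same order. Of 4 liver-linked miRNAs, 3 were well above background on each array (hsa-miR-192, hsa-miR-194 and hsa-miR-215), with summed signals of 4390, 4933 and 1833 units, while hsa-miR-122, the most typical miRNA of hepatocytes, was not well above background on any array (3.62, -0.24 and 5.62 units). None of 4 muscle miRNAs was detected on any array (summed signals between -5.52 and -4.46 units). Of 5 blood-linked miRNAs, hsa-miR-142-3p and hsa-miR-142-5p were detected on each array, with list sums of 1732, 1455 and 456 units, while hsa-miR-150, hsa-miR-223 and hsa-miR-451 were not detected on any array. The part of these miRNAs in the let-7 values was not tested.

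hsa-let-7a, hsa-let-7f, hsa-let-7e and hsa-let-7g gave most of the family signal. The summed signal of both hsa-let-7a probes was 1799 ± 124 intensity units in non-treated cells, 1718 ± 148 after miR-195 and 610 ± 105 after miR-497 (unscaled, spot SD). For hsa-let-7f it was 1236 ± 80.5, 1015 ± 48.8 and 398 ± 42.9 units. On the dimmer miR-497 array both stood at 32.2% to 33.9% of their non-treated signal. In the miR-195 group hsa-let-7a was within its spot SD of the non-treated value, and hsa-let-7f was lower by more than the sum of the spot SDs.

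hsa-let-7e, which is made from the same cluster as miR-99b and miR-125a, had 581 ± 11.4 units in non-treated cells, 612 ± 35.4 after miR-195 and 190 ± 26.3 after miR-497. hsa-let-7g had 478 ± 34.3, 424 ± 39.2 and 167 ± 19.1 units. The gap between these 2 members exceeded the sum of their spot SDs on the non-treated and miR-195 arrays but not on the miR-497 array.

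hsa-let-7i had 231 ± 15.5 units in non-treated cells, 264 ± 15.3 after miR-195 and 81.8 ± 7.15 after miR-497. hsa-let-7d had 173 ± 5.15, 132 ± 8.21 and 42.5 ± 3.16 units. These members were also detected on every array, and hsa-let-7i stood above hsa-let-7d on each by more than the sum of their spot SDs. The order of the 6 brightest members was the same on the 3 arrays. It is an order of signal, since probes of different sequence need not bind alike, and it is not an order of molecules.

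The remaining members lay at or near the background. hsa-let-7b was well above background on the non-treated array (37.0 ± 4.50 units) and after miR-195 (32.1 ± 3.45), through 1 of its 2 probes, but not after miR-497 (13.3 ± 4.20). hsa-miR-98 was well above background on the non-treated array alone (18.8 ± 2.83), and had 16.3 ± 3.40 and 8.85 ± 3.50 units on the miR-195 and miR-497 arrays. hsa-let-7c was not well above background on any array, with 12.6 ± 2.46, 10.9 ± 5.53 and 8.82 ± 4.06 units. The values of hsa-miR-98 and hsa-let-7c lay within the sum of their spot SDs on the miR-195 and miR-497 arrays and have no order there. Members well above background therefore numbered 8 of 9 in non-treated cells, 7 after miR-195 and 6 after miR-497, and member probes 14, 13 and 11 of 18. Detection fell off together with the brightness of the arrays, and its part in these counts was not tested.

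**Figure D1:**
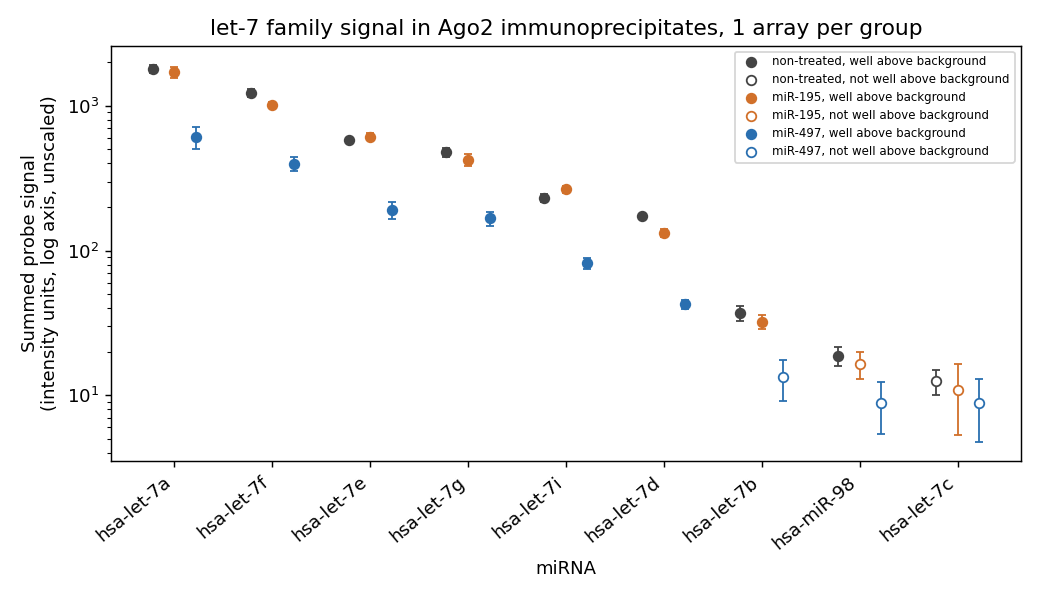
Summed probe signal of each let-7 member in intensity units (log axis, not scaled between arrays) on the non-treated, miR-195 and miR-497 arrays, 1 array per group. Bars are the spot SD and open circles mark values not well above background; the 6 brightest members keep their order on every array, and the miR-497 array is dimmer for all 9.

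As a share of the signal of human miRNAs well above background, the family held 1.91% ± 0.079 (spot SD) on the non-treated array, over 167 miRNAs without the transfected ones and their passenger strands. It held 1.96% ± 0.082 after miR-195, over 150 miRNAs, and 1.51% ± 0.13 after miR-497, over 118. The share needs no scaling between arrays. The non-treated and miR-195 arrays differed by less than their spot SDs, and the miR-497 array was lower than both by more than the sum of the spot SDs. This gap did not hold under every setting. With the normexp background the shares were 2.11% ± 0.077, 2.15% ± 0.078 and 1.95% ± 0.13, within the sum of the spot SDs. That background adds an offset of 50 units to each spot, which lifts faint signals most in proportion. The brightest single miRNA in the denominator was hsa-miR-21, named after its values were seen, with 29.9% of the signal in non-treated cells, 25% after miR-195 and 38.1% after miR-497. Without it the family share was 2.72% ± 0.096, 2.61% ± 0.11 and 2.44% ± 0.20, again within the sum of the spot SDs. The transfected strands themselves took 0.022% of all human signal in non-treated cells, 18.6% after miR-195 and 7.70% after miR-497. With these strands in the denominator the family share was 1.91%, 1.60% and 1.40%. Over the 117 miRNAs detected on all 3 arrays it was 1.90%, 1.96% and 1.51%.

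Within the family, hsa-let-7a made up 39.4% ± 1.8 of the signal in non-treated cells, 40.7% ± 2.2 after miR-195 and 40.1% ± 4.4 after miR-497. Together with hsa-let-7f it made up 66.5%, 64.7% and 66.3%. hsa-let-7e gave 12.7%, 14.5% and 12.5%, hsa-let-7g 10.5%, 10.0% and 11.0%, hsa-let-7i 5.06%, 6.26% and 5.38%, and hsa-let-7d 3.78%, 3.12% and 2.80%. The 3 dimmest members gave under 1% each on every array, but between 2.45% and 5.15% with the normexp background. With that background hsa-let-7a and hsa-let-7f together made up 58.0%, 55.7% and 47.9%. These are shares of signal read by different probes.

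**Figure D2:**
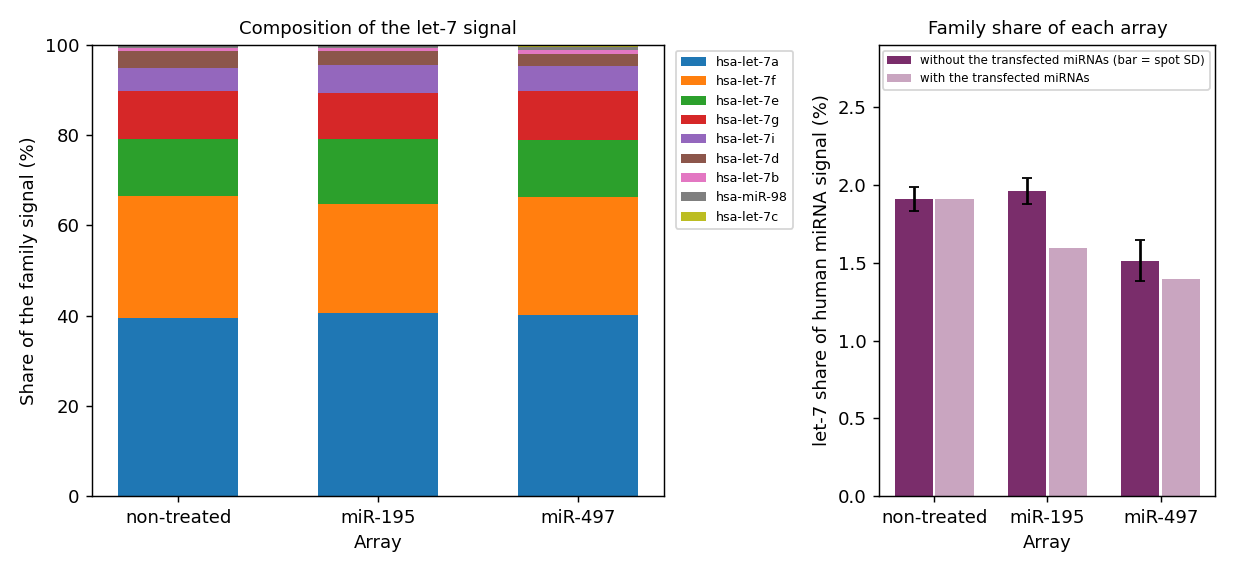
Left, share of each member in the summed let-7 signal of each array (percent, all 9 members, those not well above background included). Right, share of the family in the signal of human miRNAs well above background, with the transfected miRNAs and their passenger strands left out (bar, spot SD) or included. hsa-let-7a and hsa-let-7f fill 64.7% to 66.5% of the bar on every array, and the family share is lowest on the miR-497 array.

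In cells transfected with miR-195, the let-7 signal relative to the other miRNAs was close to that of non-treated cells. The family sum was 4567 ± 153 units in non-treated cells and 4223 ± 166 after miR-195, a scaled difference of -0.03 log2 units (spot SD 0.07), compared with a median of -0.01 over all 147 human miRNAs measured on both arrays. Scaled means divided by the 75th percentile given above, so that a value of 0 stands for a signal that moved with that of the array. None of the 7 members measured on both arrays differed by 2-fold, a fixed size used here in place of a test, and none by 1.5-fold. Of all 147 miRNAs, 5 differed by 2-fold (3.4%) and 12 by 1.5-fold (8.16%), so a count of 0 among 7 is near the background.

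The members ranged from -0.30 (spot SD 0.10) for hsa-let-7d to 0.28 (0.13) for hsa-let-7i. hsa-let-7e was at 0.16 (0.09) and hsa-let-7f at -0.20 (0.12). These 4 of 7 members exceeded their own spot SD, as did 87 of all 147 miRNAs (59.2%). hsa-let-7a was at 0.02 (0.16), hsa-let-7g at -0.09 (0.17) and hsa-let-7b at -0.12 (0.23), each within its spot SD. The median of the 7 was -0.09. No fold is given for hsa-miR-98, which was above background on the non-treated array alone, or for hsa-let-7c.

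In cells transfected with miR-497, the family sum was 1520 ± 118 units, a scaled difference of 0.06 log2 units (spot SD 0.12) from non-treated cells, compared with a median of 0.03 over 118 miRNAs. Without scaling the difference was -1.59 log2 units, beside -1.62 for all measured miRNAs. None of the 6 members measured differed by 2-fold or by 1.5-fold, while 4 of the 118 miRNAs differed by 2-fold (3.39%) and 7 by 1.5-fold (5.93%). hsa-let-7d was again the lowest, at -0.37 (spot SD 0.12), and was the 1 of 6 members beyond its spot SD, beside 58 of all 118 miRNAs (49.2%). The other 5 members lay between 0.01 (0.18) for hsa-let-7f and 0.15 (0.16) for hsa-let-7i. Both comparisons use the same non-treated array, so that an error in its hsa-let-7d or hsa-let-7i value would appear in both. In the software totals that underlie the authors' normalized table, hsa-let-7d on the miR-497 array had the opposite sign, as described in the closing section.

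The share of total signal and the scaled sum read differently on the miR-497 array. The family share was lower there than on the non-treated array, while the scaled sum differed by less than its spot SD (0.06 log2 units, spot SD 0.12). The share is read against the summed signal and the scaled sum against the 75th percentile of the shared probes.

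The 2 transfections were also compared directly, which leaves out the non-treated array. The family sum of the miR-497 array was 0.09 log2 units above that of the miR-195 array (spot SD 0.13), beside a median of 0.02 over 117 miRNAs. None of 6 members differed by 2-fold or by 1.5-fold, while 2 of the 117 miRNAs differed by 2-fold (1.71%) and 3 by 1.5-fold (2.56%). The members lay between -0.13 (0.15) for hsa-let-7i and 0.22 (0.21) for hsa-let-7g. hsa-let-7d, the lowest member against non-treated cells, was at -0.06 (0.14) here. hsa-let-7f, at 0.21 (0.17), and hsa-let-7g were the 2 of 6 members beyond their spot SD, beside 47 of all 117 miRNAs (40.2%). In these bulk samples, a change in let-7 RNA per cell, in its part in Ago2 or in the cells recovered cannot be told apart.

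**Figure D3:**
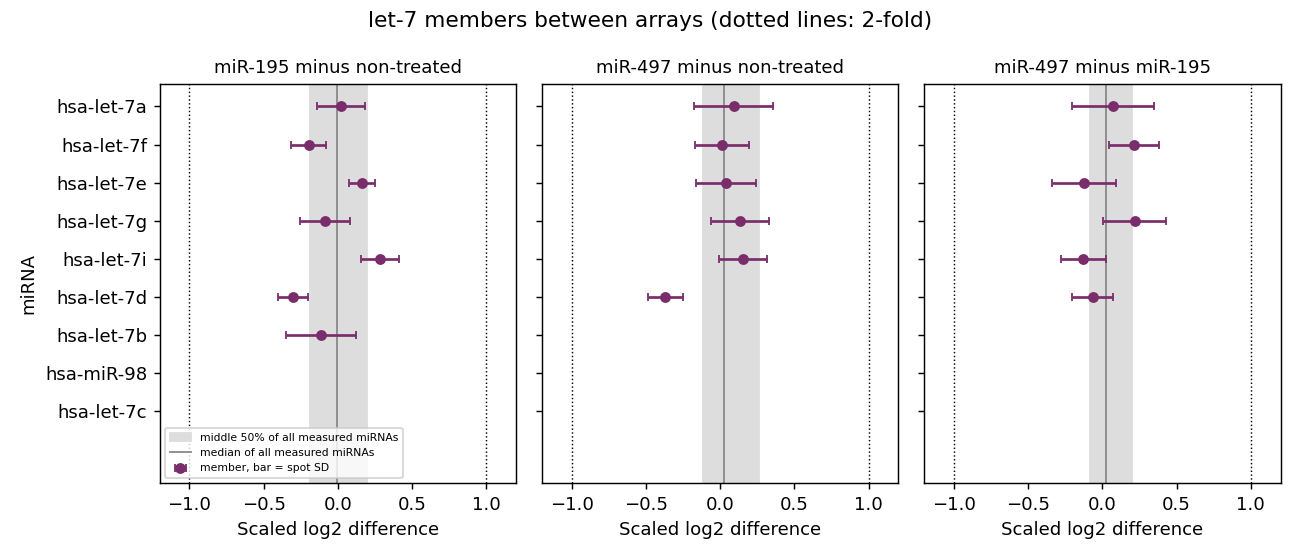
Scaled log2 difference of each let-7 member for the 3 pairs of arrays (points, with the spot SD as bars). The grey band spans the middle 50% of all human miRNAs measured on both arrays and the grey line is their median. Every measured member lies inside the dotted 2-fold lines. hsa-let-7d lies below the band against the non-treated array in both transfections. In the miR-195 comparison with non-treated cells hsa-let-7i lies above it and hsa-let-7f just below it. Between the transfected arrays hsa-let-7f and hsa-let-7g lie just above the band, and hsa-let-7e and hsa-let-7i below it. hsa-let-7c and hsa-miR-98 had no measured difference, and hsa-let-7b was measured in the miR-195 comparison with non-treated cells alone.

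The near-identical sequences raise the question how far a probe for one member read another. The probe sequences were not available, so which bases a probe covers is not known. A base difference named here need not lie under a probe. hsa-let-7c differs from the brightest member, hsa-let-7a, by A19G alone. Its probes together gave 0.70% of the hsa-let-7a signal in non-treated cells, 0.63% after miR-195 and 1.45% after miR-497, and were at background level on each. At that level the percentages carry a log2 spot SD of 0.30, 0.74 and 0.71. The 2 probes were also read singly, each against the hsa-let-7a probe of the same brightness rank on the non-treated array. They lay between -0.25% and 2.63% of it, and no upper limit is drawn from these percentages. hsa-let-7b, with A17G and A19G, gave 2.06%, 1.87% and 2.18% of the hsa-let-7a signal, and hsa-miR-98, with G11A and A19U, 1.05%, 0.95% and 1.45%.

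The other members gave more signal against hsa-let-7a. hsa-let-7e, at a single difference (U9G), gave 32.3%, 35.6% and 31.2% of the hsa-let-7a signal, and hsa-let-7f (G12A) gave 68.7%, 59.1% and 65.2%. hsa-let-7g gave between 24.7% and 27.3%, hsa-let-7i between 12.8% and 15.4%, and hsa-let-7d between 6.97% and 9.59%. The hsa-let-7f to hsa-let-7a ratio was -0.54 log2 units (spot SD 0.14) in non-treated cells, -0.76 (0.14) after miR-195 and -0.62 (0.29) after miR-497, and these values overlapped within the sum of their spot SDs. The number of differing bases did not order the signals, as members at a single difference from hsa-let-7a included both hsa-let-7f and the undetected hsa-let-7c. The part of hsa-let-7a RNA in the hsa-let-7e and hsa-let-7f signals was not tested, as no array here held a single member alone.

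**Figure D4:**
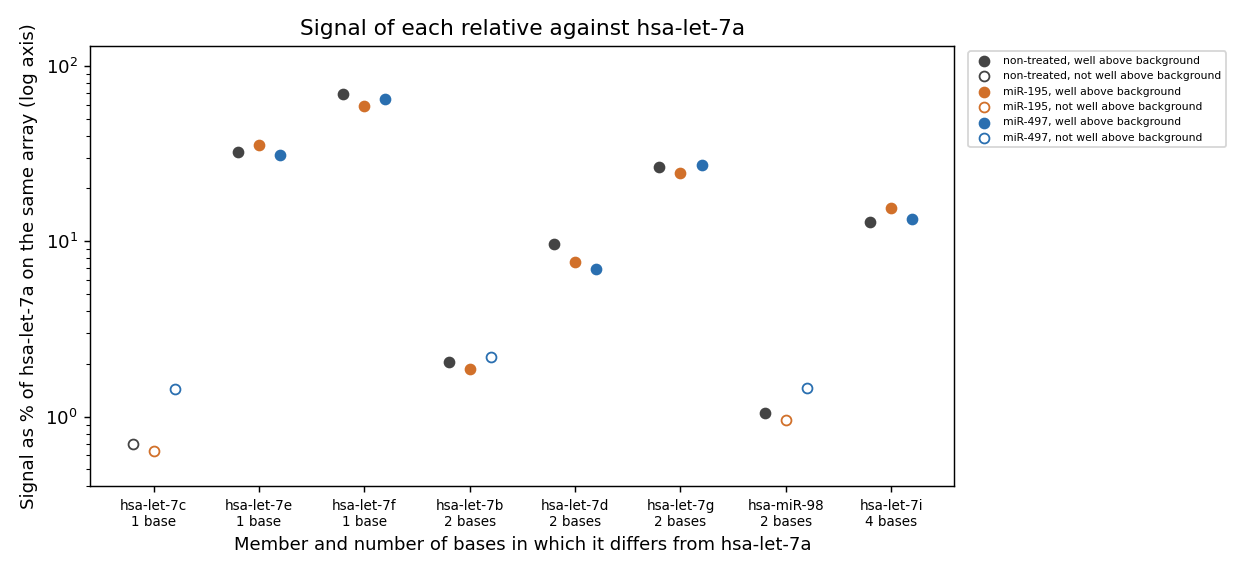
Signal of each member as a percent of hsa-let-7a on the same array (log axis), ordered by the number of bases in which its mature sequence differs from hsa-let-7a; open circles are not well above background. With 1 differing base, hsa-let-7f lies between 59.1% and 68.7% and hsa-let-7c between 0.63% and 1.45%.

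The 2 probes of a member offered a second view of the same RNA. One probe was always brighter, and on the non-treated array the dimmer probe had between 15.1% (hsa-let-7f) and 47.7% (hsa-let-7i) of the signal of the brighter one, over the 6 members with both probes detected. The hsa-let-7f probes had 1074 ± 80.0 and 163 ± 9.15 units there, and those of hsa-let-7i 156 ± 15.2 and 74.6 ± 3.29. Across arrays, the log2 ratio of brighter to dimmer probe of hsa-let-7a ranged from 1.57 to 1.85, that of hsa-let-7e from 1.39 to 1.84, that of hsa-let-7f from 2.72 to 3.12, that of hsa-let-7g from 1.93 to 2.33 and that of hsa-let-7i from 1.07 to 1.25.

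The ratio was smallest on the non-treated array for each of these 5 members. Against non-treated cells, the dimmer probe was lower than the brighter one in 6 of 6 members on the miR-195 array, by 0.16 to 0.39 log2 units, and in 5 of 5 on the miR-497 array, by 0.10 to 0.44. Between the miR-497 and miR-195 arrays it was lower in 2 of 5. Among other human miRNAs with at least 2 detected probes, the dimmer probe was lower in 68 of 95 (71.6%) for miR-195 against non-treated cells, in 47 of 57 (82.5%) for miR-497 against non-treated cells and in 48 of 57 (84.2%) for miR-497 against miR-195. The members' counts went with those of the other miRNAs in the comparisons with non-treated cells, which share an array, and were lower in the third, and neither was tested.

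As a result, the sign of a small difference could depend on the probe. Against non-treated cells the probes of a member agreed in sign for 4 of 6 members on the miR-195 array and for 1 of 5 on the miR-497 array. Between the miR-497 and miR-195 arrays they agreed for 5 of 5. The same count over other miRNAs was not made. hsa-let-7a was at 0.08 (spot SD 0.20) by its brighter and -0.16 (0.14) by its dimmer probe on the miR-195 array, and hsa-let-7e at 0.15 (0.26) and -0.29 (0.10) on the miR-497 array. hsa-let-7d was at -0.27 (0.10) and -0.43 (0.29) by its probes on the miR-195 array, and at -0.41 (0.12) by its brighter probe on the miR-497 array, where the dimmer one was not detected. hsa-let-7i was above 0 by both probes in both comparisons. Relative to the median of all measured miRNAs, hsa-let-7d was at -0.30 and -0.40 and hsa-let-7i at 0.29 and 0.13 in the miR-195 and miR-497 comparisons, whichever factor scaled the arrays. After miR-497 hsa-let-7d turned to 0.15 above the median with the normexp background, and both members turned with the software totals and in the deposited table.

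**Figure D5:**
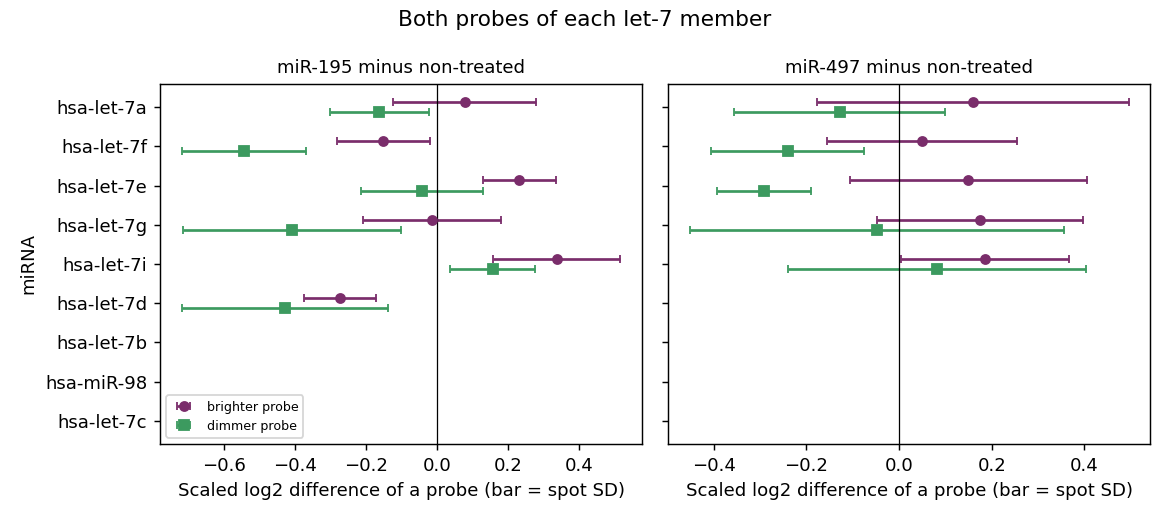
Scaled log2 difference from the non-treated array for the brighter (circle) and dimmer (square) probe of each member, with the spot SD as bars; members without both probes detected on both arrays are left blank. The dimmer probe lies to the left in 6 of 6 members on the miR-195 array and in 5 of 5 on the miR-497 array.

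Spot outliers mattered most for the faint hsa-let-7c. On the non-treated array 3 of the 8 spots of its brighter probe were flagged as outliers by the software, the highest at 99.5 units, while the 5 spots used averaged 11.8 ± 2.41. With all 8 spots the mean was 24.1 ± 31.3. Flagged member spots numbered 21 of 144 in non-treated cells, 10 after miR-195 and 11 after miR-497.

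The passenger strands of the family, the strands of the precursor that are usually discarded, were not well above background by their own probes. None of the 9 on the array (hsa-let-7a*, hsa-let-7b*, hsa-let-7c*, hsa-let-7d*, hsa-let-7e*, hsa-let-7f-1*, hsa-let-7f-2*, hsa-let-7g* and hsa-let-7i*) was detected on any of the 3 arrays, with a highest sum of 48.8 ± 8.11 units over 4 probes for hsa-let-7d* on the miR-195 array.

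The miRNAs encoded in clusters with let-7 differed among themselves. hsa-miR-125a-5p, from the hsa-let-7e cluster, had 213 ± 19.8, 165 ± 13.0 and 61.0 ± 5.98 units on the non-treated, miR-195 and miR-497 arrays, with scaled differences from non-treated cells of -0.28 (spot SD 0.18) and -0.15 (0.20). hsa-miR-99b, of the same cluster, had 89.4 ± 8.20 and 77.5 ± 8.26 units on the non-treated and miR-195 arrays, a scaled difference of -0.12 (0.20), but after miR-497 it did not stand well above background (15.8 ± 3.56). hsa-miR-99a, hsa-miR-100 and hsa-miR-125b, encoded near hsa-let-7c and a hsa-let-7a copy, were not detected on any array, with signals between -7.27 and 7.12 units.

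Among 111 other human miRNAs detected on all 3 arrays, those nearest to the family sum in their 2 scaled differences from the non-treated array were hsa-miR-24-1* (Euclidean distance 0.053 log2 units), hsa-miR-140-3p (0.068), hsa-miR-505* (0.070), hsa-miR-502-3p (0.080) and hsa-miR-33a (0.11). All 5 lay between -0.05 and 0.17 in both comparisons. With 2 values per miRNA, both from the same non-treated array, this likeness is a description of small differences.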

How the data were processed

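Ago2-bound RNA of Hep G2 cells was measured on 3 single-colour Agilent human miRNA arrays, 1 per group, on 1 slide and in 1 scan. The deposited scanner files hold linear intensity per spot from Agilent Feature Extraction 10.7.1.1, background-subtracted and without scaling between arrays, with flags for spots well above background and for outliers. The authors also deposited a table of log2 values made in GeneSpring from the software's total per miRNA. That table served as an alternative.

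Control spots and flagged outlier spots were left out, and no spot was saturated. Spots were averaged per probe, the probe means of each name were added, and the sum was divided by the 75th percentile of the 183 probes well above background on all 3 arrays, and converted to log2. Detection of a probe took the software's flag on over 50% of its used spots, and detection of a miRNA at least 1 such probe. Below that level an array gave only a bound, and no fold is given where the bound lay on the other side.

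With 1 array per group no test between groups was possible, the number of arrays limits the precision, and a fixed size of 2-fold describes the differences. The methods of the study say that samples were analysed more than once; further arrays are not analysed here. The members, lists and alternatives were chosen with earlier results of these data known. The rule for names took the 9 members, their passenger strands, the cluster partners, the marker lists and the 5 nearest miRNAs. Mature sequences came from RefSeq. Python 3.11.15 with pandas 2.3.3 was used, and limma 3.58.1 for the normexp background, with an offset of 50 units. The summary was run on simulated spots built from the non-treated probe means, without flagged spots or cross-hybridisation, so it does not bear on either.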

Additional observations from a re-analysis of the deposited data

Results flagged for a closer look

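hsa-let-7d on the miR-497 array stood out in a column that the comparisons do not use, the software's total signal per miRNA. The total was 341 units there, while the software's totals of the 2 hsa-let-7d probes summed to 22.6 units, a ratio of 15.1. On the non-treated array, the control, the total and the probe sum were both 89.6 units, and on the miR-195 array both were 67.7. No other member had a total above 2-fold its own probes on any array, but over all miRNAs detected by the software such totals were common, at 55 of 191 in non-treated cells, 57 of 189 after miR-195 and 41 of 139 after miR-497. The cause was not tested.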

How the results depend on the processing

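Values are given for miR-195 minus non-treated, miR-497 minus non-treated and miR-497 minus miR-195, in log2 units. The family sum was -0.56, -1.32 and -0.76 when the 75th percentile was taken over every non-control probe, -0.11, -1.59 and -1.47 without scaling and 0.34, -1.09 and -1.43 with labelling spike-in scaling. These settings move all miRNAs alike (medians of -0.55, -1.36 and -0.82, of -0.10, -1.62 and -1.54, and of 0.35, -1.13 and -1.50), and relative to the median the family stayed at -0.02, 0.04 and 0.07 in each. Against non-treated cells, quantile normalization gave -0.26 and -0.12 and the dimmest shared detected probe -0.20 and -0.18. The software total gave -0.14, 0.20 and 0.34, and the deposited table -0.13, -1.10 and -0.96. The normexp background gave 0.34 and 0.35 for the miR-497 array against the non-treated and miR-195 arrays. A detection rule that needs the flag on every spot gave 0.093 for miR-195. For members detected by the software, the deposited values equal the log2 of the software totals, without scaling between arrays. With the software total, hsa-let-7d was at 3.22 for miR-497 against non-treated cells, and the other measured members lay between -0.31 and -0.17. The cause of the remaining shifts was not tested. The 3 values moved by less than the spot SD with the median scaling, the scaling without member probes and the brightest probe. The same held for all spots, the median over spots and the sum without hsa-let-7a. The mean over probes cannot change these values, as each member had 2 probes, and does not bear on them.

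No member differed by 2-fold in the miR-195 comparison under any alternative. In the miR-497 comparison with non-treated cells 6 members did with the all-probe percentile, without scaling, with spike-ins and in the deposited table, and 1 with the software total. Between the transfected arrays 6 did without scaling, with spike-ins and in the deposited table, and 1 with the software total. That 1 member was hsa-let-7d, which against non-treated cells moved from -0.37 to 3.22, and was at 1.93 in the deposited table. For miR-497 against non-treated cells, the median of all measured miRNAs was -1.36 with the all-probe percentile and -1.62 without scaling. With spike-ins it was -1.13, and in the deposited table -1.43. Between the transfected arrays it was -1.54 without scaling and -1.50 with spike-ins. These medians themselves lay beyond 2-fold, so a count of 6 is not read as a result about the family. The share of all miRNAs past 2-fold was not counted in these settings. For the deposited table between the transfected arrays no median is given either. Relative to the median of all miRNAs, hsa-let-7d and hsa-let-7i kept their side under all 15 alternatives after miR-195. Settings that only rescale an array, and the mean over probes, cannot change such a value and do not bear on it. The software total and the deposited table rest on the same totals. After miR-497 hsa-let-7d changed side under 3 (normexp, software total, deposited table) and hsa-let-7i under 2 (the last 2 of these).

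The family share on the non-treated, miR-195 and miR-497 arrays was 2.11%, 2.15% and 1.95% with normexp, 1.58%, 1.49% and 1.27% with the dimmest probe, 1.49%, 1.55% and 1.32% with the software total and in the deposited table, 1.15%, 1.16% and 0.893% without hsa-let-7a, and 2.72%, 2.61% and 2.44% without hsa-miR-21 in the denominator, a setting chosen after seeing the data. The brightest probe gave 2.03% and 2.12% on the first 2 arrays, and the transfected miRNAs in the denominator 1.60% on the miR-195 array. Of 284 values of member differences, 182 moved by less than the spot SD. Of 234 values of member shares in the family signal 70 moved by more. On the miR-497 array hsa-let-7a and hsa-let-7f together made up 47.9% with normexp, 57.5% with the dimmest probe and 48.2% with the software total, where hsa-let-7d made up 30.8%. No paired analysis was possible because each group held 1 array, and no array could be left out. hsa-let-7b, hsa-let-7c and hsa-miR-98 were limited by their signal over background.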

Other observations

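The software's totals departed from the probes of some relatives of the family as well. hsa-let-7d*, with none of its 4 probes detected, had a total of 93.1 units in non-treated cells and 75.3 after miR-195, while its own probe totals summed to 7.65 and 12.6. On the miR-497 array its total was 0.1, the value the software gives to an undetected miRNA. hsa-miR-99b totalled 101 units after miR-497, compared with 8.41 from its own probes, and totals equal to its own probes in the other groups (46.4 and 39.9). In the deposited log2 table, which carries these totals, hsa-let-7d stands at 8.42 after miR-497 and 6.49 in non-treated cells, and hsa-miR-99b at 6.66 and 5.54, while the summed spot signals of both were lower on the miR-497 array.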
